A study of Mus musculus with 25 samples.

Results

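The genes described here are 10 activity-response genes: the transcription factor genes Egr1, Egr2, Egr3, Egr4, Nr4a1, Nr4a2, Nr4a3 and Npas4, the synaptic gene Arc and the phosphatase gene Dusp1. They were taken by name from the gene symbols of a table of 30903 symbols, and each of the 10 had 1 row there. Messenger RNA was measured in 25 single cells, picked by hand for green fluorescence from papain-digested arcuate nucleus and median eminence of RIP-Cre male mice of strain (C57BL/6 x DBA)F2, with an average age of 63 days. The tissue of 2 mice was pooled, so the cells form 1 group and 1 pooled sample, and no test between groups and no p-value could be given. In RIP-Cre animals a rat insulin promoter drives Cre recombinase, and the fluorescent protein came from a Cre-dependent adeno-associated virus, so the cells are those that Cre and virus both reached. Cells are called by the numbers in their labels.

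Activity-response genes, also called immediate early genes, are transcribed within minutes of synaptic input, growth factors or stress, without the need for new protein. Calcium and cyclic AMP act on them through the factor CREB at cyclic AMP response elements (CREs), and MAP kinases act through serum response factor (SRF) at CArG boxes. In the hypothalamus they are widely used to mark neurons that have recently been active, and they can also respond to the handling of tissue.

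Start-site sequence was read for 7 of the 10 genes (RefSeq, GRCm38.p6), as windows of 250 bases before to 50 bases after the start. Windows of Egr1, Egr3 and Arc were not read, so nothing is said of their motifs. All 7 had at least 2 copies of the CRE core CGTCA, read on either strand, in at least 1 window. Of all 32851 promoter windows, 5.01% did, a share by window and not by gene. Egr2 had 5 windows and the other 6 genes had 1 each. The windows of 5 genes are shown because they set the 3 Nr4a genes, which are read out very differently in these cells, beside Npas4 and Dusp1. They run 5′ to 3′ on the strand of the gene, and capitals mark the CRE cores.
Nr4a1 (chr15:101266596-101266895, plus strand): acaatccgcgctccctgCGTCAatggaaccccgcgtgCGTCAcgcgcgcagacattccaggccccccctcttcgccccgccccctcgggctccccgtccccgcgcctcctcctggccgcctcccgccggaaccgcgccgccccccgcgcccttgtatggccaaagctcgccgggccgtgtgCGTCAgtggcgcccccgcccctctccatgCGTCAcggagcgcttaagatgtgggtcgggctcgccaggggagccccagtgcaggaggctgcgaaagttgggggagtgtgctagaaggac
Nr4a2 (chr2:57123954-57124253, minus strand): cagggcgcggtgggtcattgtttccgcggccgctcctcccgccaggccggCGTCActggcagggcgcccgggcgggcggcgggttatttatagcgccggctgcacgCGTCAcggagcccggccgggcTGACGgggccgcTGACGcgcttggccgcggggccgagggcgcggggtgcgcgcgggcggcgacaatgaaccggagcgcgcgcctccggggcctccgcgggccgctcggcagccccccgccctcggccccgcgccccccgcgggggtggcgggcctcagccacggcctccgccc
Nr4a3 (chr4:48045055-48045354, plus strand): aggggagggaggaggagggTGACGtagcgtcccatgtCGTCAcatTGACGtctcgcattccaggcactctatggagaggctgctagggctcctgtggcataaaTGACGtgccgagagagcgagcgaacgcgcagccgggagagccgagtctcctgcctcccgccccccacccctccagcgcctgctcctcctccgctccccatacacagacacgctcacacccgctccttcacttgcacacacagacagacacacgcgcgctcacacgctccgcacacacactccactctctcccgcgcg
Npas4 (chr19:4989922-4990221, minus strand): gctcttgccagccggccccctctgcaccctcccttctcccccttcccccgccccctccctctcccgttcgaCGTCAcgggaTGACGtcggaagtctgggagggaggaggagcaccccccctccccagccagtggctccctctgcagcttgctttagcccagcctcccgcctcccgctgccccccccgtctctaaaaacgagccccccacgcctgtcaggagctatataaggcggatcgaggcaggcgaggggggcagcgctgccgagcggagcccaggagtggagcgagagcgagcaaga
Dusp1 (chr17:26508423-26508722, minus strand): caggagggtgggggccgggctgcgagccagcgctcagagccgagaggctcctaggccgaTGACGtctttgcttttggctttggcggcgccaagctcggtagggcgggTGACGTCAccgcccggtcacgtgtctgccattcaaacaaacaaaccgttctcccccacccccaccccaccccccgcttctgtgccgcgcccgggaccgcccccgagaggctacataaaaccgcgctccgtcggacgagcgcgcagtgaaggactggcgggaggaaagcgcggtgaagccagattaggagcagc

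Each Nr4a window held 4 cores, where 1.03% of all windows held 3 or more. In Dusp1, which had 3, the copies that begin 143 and 140 bases before the start overlap as the full element TGACGTCA, present in 1.79% of windows and in no other of the 7 genes. Npas4 and Egr4 held 2 cores each, and Egr2, with 5 annotated starts, held the same 2 in 3 of its windows, which overlap. Among the 7, a CArG box was found for Egr2 alone, and 1.63% of all windows have one. The TATAAA sequence, in 13.6% of windows, was present in Nr4a2 alone among the 7, where it lies on the strand opposite to the one printed. All motifs were searched on both strands. Neither the Egr site GCGTGGGCG (0.612% of windows) nor the Nr4a element AAAGGTCA (1.51% of windows) was found in any of the 7. The windows of these genes were 56 to 81.7% G and C, against a median of 52.7% over all windows. These matches are descriptions of the letters in the window and say nothing of binding.

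The 10 genes spanned the whole range of detection in these cells. Levels are in RPKM, which scales the reads of a gene to its exon length and to the sequenced reads of the cell, and 10 RPKM was taken as the detection level. By that measure, 5 of the 10 genes were found in most cells, meaning at least 13 of 25, against 13.5% of all symbols, and each of the 10 was found in at least 1 cell, against 42.7% of all symbols. The estimated depth was 887700 to 2994700 reads per cell, and the median cell had 1803700. In a cell of median depth, 10 RPKM corresponded to 38.7 reads of Egr4, which has the shortest exons, and to 108 reads of Nr4a3, which has the longest.

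**Figure D1:**
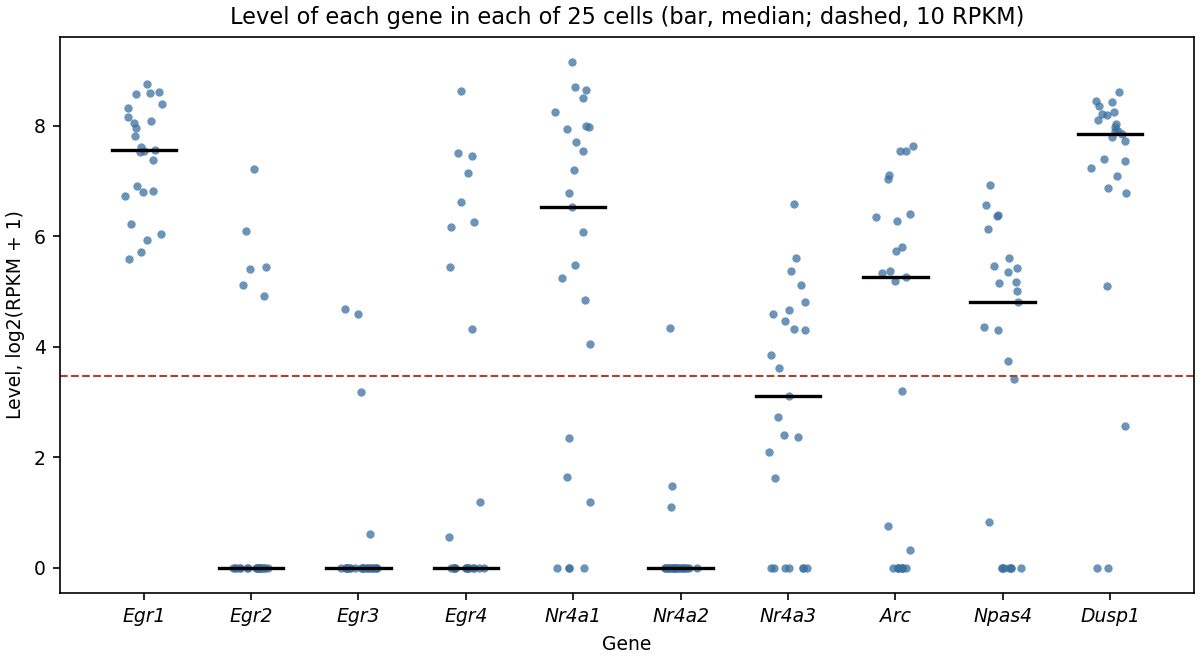
Level of each gene (log2 of RPKM + 1, y axis) in each of 25 cells (points), with the median over cells as a bar and 10 RPKM as a dashed line. Egr1 lies above the line in all 25 cells, while Egr2, Egr3, Egr4 and Nr4a2 have a median of 0.

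Egr1 was the one member found in every cell. It encodes a zinc finger transcription factor that is induced by calcium and growth factor signals. Its level was 47.2 RPKM at the lowest (cell 10), 186 RPKM at the median and 432 RPKM at the highest (cell 14), a 9.14-fold range. Of all symbols, 2.60% (804 of 30903) were at the level in all 25 cells. Egr1 ranked at the 98.3rd percentile of all symbols in the median cell and at the 91.5th in cell 10, and 409 symbols had a higher median over cells. The lowest 4 cells, 10, 6, 4 and 17, held 47.2, 51.4, 60.0 and 64.6 RPKM.

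The other Egr genes, which encode factors with closely related zinc fingers, were each restricted to fewer cells. Egr4 was listed at 0 in 14 cells and reached the level in 9 (36%, exact Clopper-Pearson 95% interval 17.97 to 57.5%), from 18.9 RPKM in cell 26 to 396 RPKM in cell 1. Cells 7, 27 and 31 followed cell 1 with 181, 174 and 141 RPKM. In cells 1 and 7 Egr4 exceeded Egr1, which stood there at 283 and 109.6 RPKM.

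Egr2, which is known for its role in Schwann cells and hindbrain development and is also activity-induced in neurons, was found in 6 cells (24%, interval 9.36 to 45.1%). Cells 1, 2, 6, 12, 26 and 31 held 147, 41.5, 67.1, 33.6, 29.4 and 42.5 RPKM, and the other 19 cells were listed at 0, with no value in between. Egr3, known for roles in muscle spindles and in neuronal plasticity, reached the level in cells 1 and 2, which held 23.0 and 24.6 RPKM (8%, interval 0.984 to 26.0%). Cell 7 had 8.10 RPKM, cell 32 had 0.52 RPKM and all others were listed at 0.

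The Nr4a genes encode orphan nuclear receptors that can act without a known ligand. They were ordered Nr4a1, Nr4a3 and Nr4a2 by the number of cells. Nr4a1 (Nur77) was found in 18 cells (72%, interval 50.6 to 87.9%), and its median over all 25 cells was 91.3 RPKM, with a peak of 567 RPKM in cell 1. It was listed at 0 in cells 3, 4, 10 and 17 and at 1.27 to 4.10 RPKM in cells 9, 13 and 25. Among the 18 cells at the level, values spread 36.3-fold, from 15.6 RPKM in cell 29 upwards. By how far the squared coefficient of variation lies above the trend with the mean, Nr4a1 ranked 13 and Egr4 ranked 23 of the 9783 genes at the level in at least 3 cells. Egr2, Egr1, Arc and Dusp1 ranked 327, 391, 483 and 533. Npas4 and Nr4a3 ranked 4124 and 4969, and Egr3 and Nr4a2 were in too few cells to be ranked.

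Nr4a3 (Nor1) was found in 12 cells (48%, interval 27.8 to 68.7%) at far lower levels, with a median over all cells of 7.64 RPKM. Cells 31, 43 and 12 were highest, with 94.2, 47.7 and 40.1 RPKM, and a further 6 cells held 2.08 to 7.64 RPKM. At a detection level of 1 RPKM, Nr4a3 was found in 18 cells. Nr4a2 (Nurr1), a regulator of midbrain dopamine neurons, reached the level in cell 43 alone, at 19.2 RPKM (4%, interval 0.101 to 20.4%). Cell 32 had 1.78 RPKM, cell 29 had less, and the other 22 cells were listed at 0. Of the 8 cells that held the dopamine synthesis gene Th at the level, 7 had Nr4a3, 7 had Nr4a1 and 1 had Nr4a2. Among the other 17 cells these counts were 5, 11 and 0. Arc was in 6 of the 8 and 8 of the 17, Dusp1 in 8 and 14 and Egr4 in 4 and 5. Egr2 was in 3 and 3, Egr3 in 1 and 1, Egr1 in 8 and 17 and Npas4 in 5 and 11. For the Th cells, no share over all symbols was computed.

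Npas4 and Arc are known above all from neurons. Npas4, a factor induced by calcium entry that regulates inhibitory synapses, was found in 16 cells (64%, interval 42.5 to 82.0%). The median cell had 26.9 RPKM, and cells 31, 11 and 27 were highest with 119.9, 93.9 and 82.6 RPKM. Cell 1, which was highest for Nr4a1, Egr4 and Egr2, had 9.60 RPKM of Npas4, just under the level. Arc, which encodes a synaptic protein that regulates the removal of AMPA receptors, was found in 14 cells (56%, interval 34.9 to 75.6%). Its median was 37.3 RPKM, its highest values were 197, 186 and 185 RPKM in cells 11, 43 and 5, and 8 cells were listed at 0. Cell 31, at the top for Npas4 and Nr4a3, was one of those 8.

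Dusp1, a phosphatase that switches off MAP kinases and so limits the signal that induces it, was the highest of the 10 by median. It was found in 22 cells (88%, interval 68.8 to 97.5%) and its level was 228 RPKM at the median and 389 RPKM at the top, in cell 27. The exceptions were cells 4 and 10, listed at 0, and cell 7, at 4.94 RPKM. Of the 22 cells, cell 25 was lowest at 33.4 RPKM, and the next lowest was cell 12 at 109 RPKM. The Dusp1 gene overlaps Ergic1 on the opposite strand by 640 bases, of which 11 are exonic in both, and the libraries mark no strand.

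By median level the order was Dusp1, Egr1, Nr4a1, Arc, Npas4 and Nr4a3, at 228, 186, 91.3, 37.3, 26.9 and 7.64 RPKM, followed by Egr2, Egr3, Egr4 and Nr4a2 at 0. Neighbours in that order were not cleanly separated within cells. Dusp1 exceeded Egr1 in 13 of 25 cells, Egr1 exceeded Nr4a1 in 20, Nr4a1 exceeded Arc in 18, Arc exceeded Npas4 in 14 and Npas4 exceeded Nr4a3 in 14. RPKM is per length, but the lengths behind the deposited values are not known, so the order between genes is approximate.

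Cells differed widely in how many of the 10 genes they held. The median was 5 genes per cell, and the range was 1 (cell 10) to 8 (cells 1 and 2). Summed over the 10 genes, the level was 47.2 RPKM in cell 10, 585 RPKM in the median cell and 1729 RPKM in cell 1. Next came cells 27, 31, 43, 5, 11, 2 and 14, from 1493 RPKM in cell 27 to 1026 RPKM in cell 14. Egr1 made up 31.3% of the sum in the median cell, from 7.91% in cell 6 to all of it in cell 10.

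**Figure D2:**
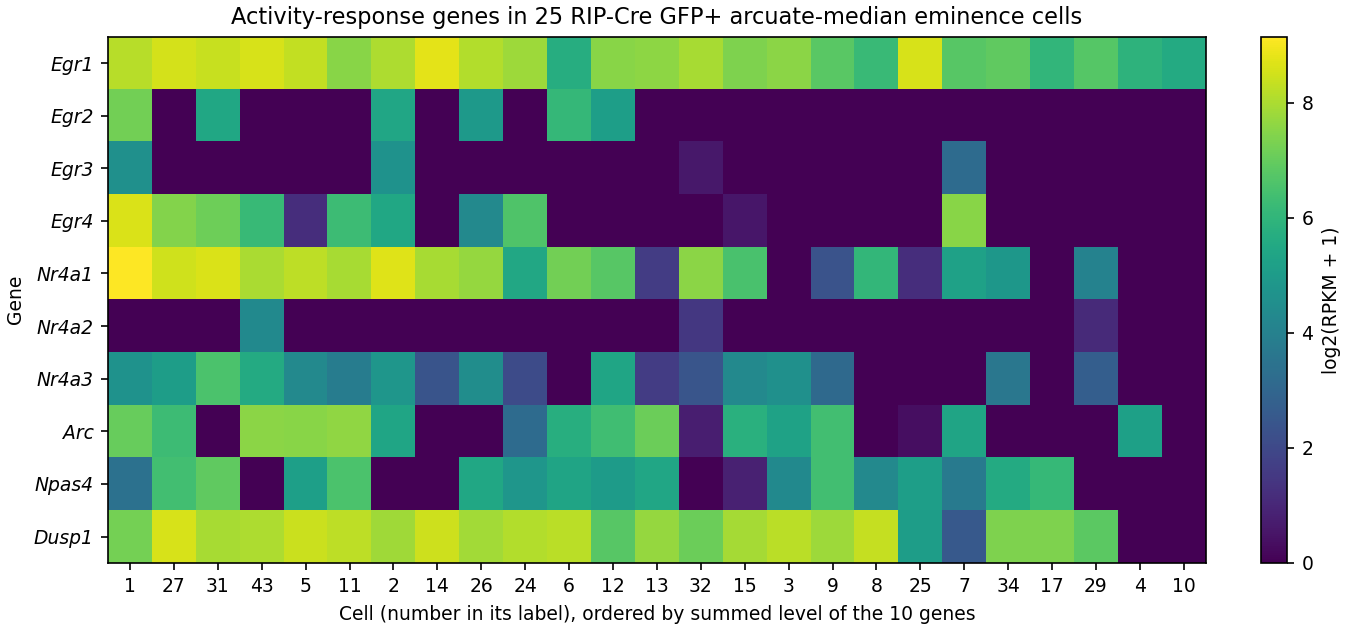
Level of the 10 genes (rows, log2 of RPKM + 1) in the 25 cells (columns, ordered from the highest summed level on the left). Cells 4 and 10 on the right hold 2 genes and 1 gene at the level, and cell 1 on the left holds 8.

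Cell 10 held none of the members but Egr1, and its AP-1 genes summed to 38.1 RPKM, the lowest of any cell, with Fos listed at 0. Cell 4 held Egr1 at 60.0 RPKM and Arc at 35.5 RPKM, and the other 8 genes were listed at 0. Cells 10 and 4 had estimated depths of 2207500 and 1911400 reads, against a median of 1803700. They had 5031 and 5212 genes at the level against a median of 4896, and they held 11 and 12 of the 12 neuron markers. These values do not show whether an RNA listed at 0 was absent or was not captured. Over all 25 cells, the summed level had a Spearman correlation of -0.15 with depth, -0.17 with the nuclear RNA Malat1 and -0.40 with the number of genes at the level. These correlations describe cells of 1 preparation, and the part of each measure in the sum was not tested.

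The cells with Egr2, Egr3, Egr4 or Nr4a3 mostly held Nr4a1 and Dusp1 too. All 6 Egr2 cells had Nr4a1 and Dusp1, and 5 of them had Nr4a3. All 9 Egr4 cells had Nr4a1, which is 50% of the 18 Nr4a1 cells. Both Egr3 cells had Egr2, Egr4, Nr4a1, Nr4a3, Arc and Dusp1, and neither had Npas4. Every one of the 12 Nr4a3 cells had Dusp1 and 11 had Nr4a1. Egr1 was in every cell, Dusp1 in 22 and Nr4a1 in 18, so that overlaps with them tend to be large whatever the other gene. Arc and Npas4 were each in 4 of the 6 Egr2 cells and in 6 of the 9 Egr4 cells. The 14 Arc cells and the 16 Npas4 cells shared 9, which is 64.3% of the Arc cells and 56.3% of the Npas4 cells, and 4 cells had neither.

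Across cells, levels of the members rose and fell together to differing degrees. The 7 genes at the level in at least 8 cells form 21 pairs, with a median Spearman correlation of 0.34, and all 21 were above 0. Among all 20183481 pairs of the 6354 genes that passed the same filter, the median was 0.002 and 50.4% were above 0. The 25 points of each pair share 1 preparation, differ in depth and hold many zeros, so the values are descriptions. Nr4a1 was nearest to the others, at 0.67 with Egr4, 0.67 with Nr4a3, 0.62 with Egr1 and 0.50 with Dusp1. Egr1 and Nr4a3 had 0.59. Npas4 stood apart, at 0.05 with Egr1, 0.07 with Nr4a1, 0.13 with Arc, 0.16 with Nr4a3, 0.17 with Egr4 and 0.32 with Dusp1. Without cell 10, the values of Npas4 with Egr1 and Nr4a1 were -0.04 and -0.01, and without cells 4 and 10 they were -0.13 and -0.09. Without cells 4 and 10, Nr4a1 had 0.65 with Egr4, 0.62 with Nr4a3, 0.54 with Egr1 and 0.38 with Dusp1, and the median of the 21 pairs was 0.23.

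**Figure D3:**
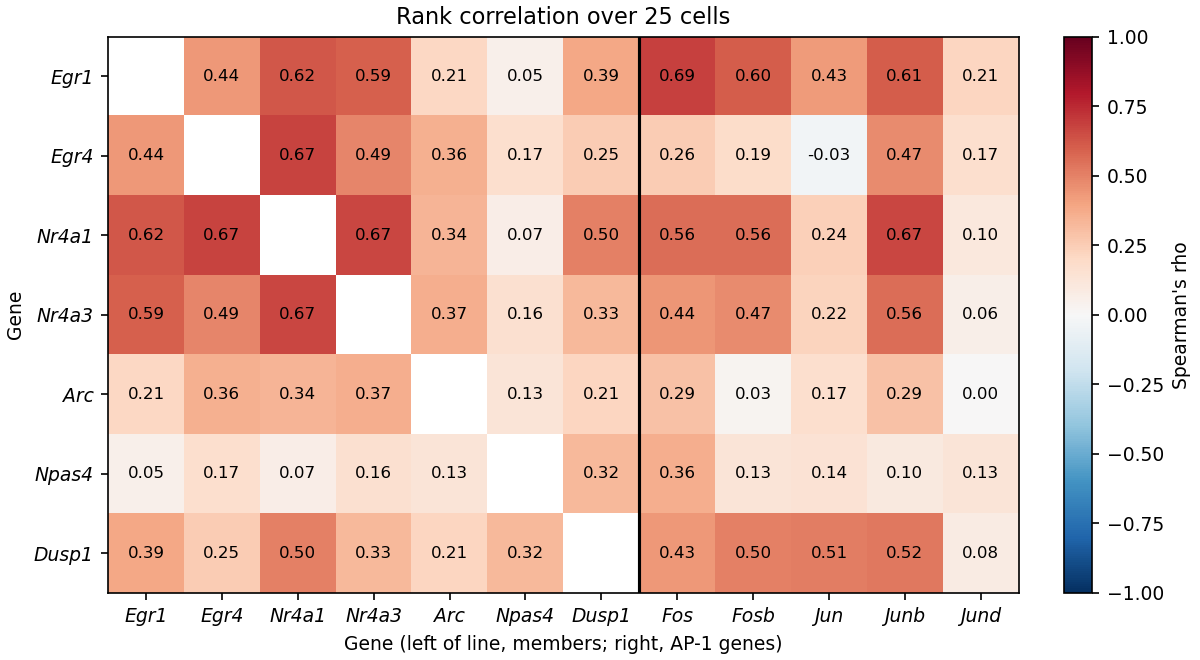
Spearman correlation over 25 cells between the 7 members detected in 8 or more cells (rows, and columns left of the line) and with 5 AP-1 genes that pass the same filter (columns right of the line). Among members, the highest values are those of Nr4a1 with Egr4 and with Nr4a3, both 0.67, and the Npas4 row stays between 0.05 and 0.36.

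The AP-1 genes, whose Fos and Jun proteins pair to bind DNA, varied with the members. The summed level of 7 AP-1 genes was 38.1 to 1609 RPKM per cell and had a Spearman correlation of 0.77 with the summed level of the 10 members (0.70 without cells 4 and 10). By gene, Egr1 had 0.69 with Fos, 0.61 with Junb and 0.60 with Fosb, Nr4a1 had 0.67 with Junb, and no member exceeded 0.22 with Jund. Npas4 had 0.36 with Fos and at most 0.14 with the other 4 genes that passed the filter.

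**Figure D4:**
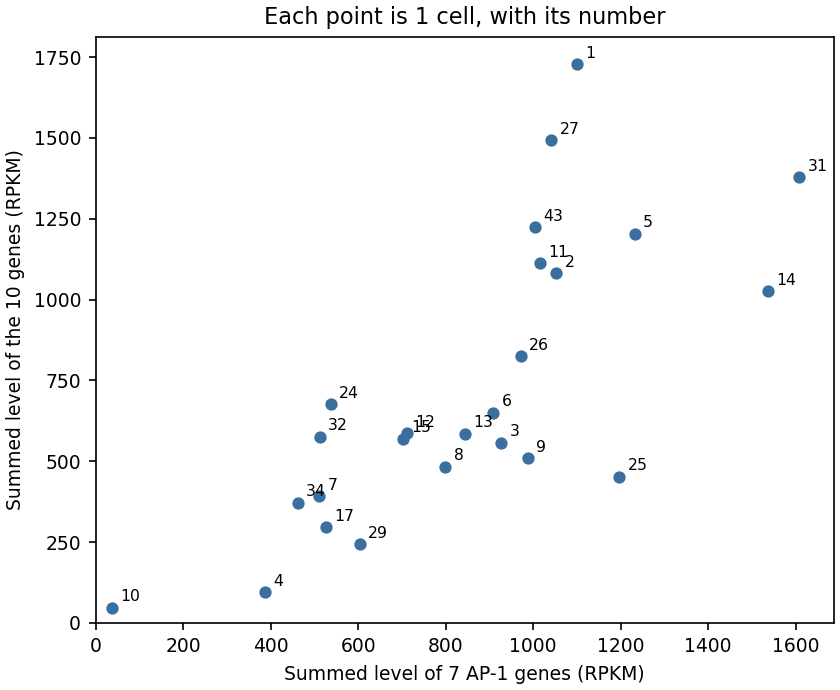
Summed level of the 10 genes (y axis, RPKM) against the summed level of 7 AP-1 genes (x axis, RPKM), 1 point per cell with its number. Cells 10 and 4 are lowest on the y axis, at 47.2 and 95.5 RPKM, and cell 1 is highest at 1729 RPKM.

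A pair of genes outside the list came up repeatedly among those most like the members by Spearman correlation over the 25 cells, in a search of the 6354 genes at the level in at least 8 cells. They were Sik1, a salt-inducible kinase gene that is itself a CREB target, and Ccnt1, which encodes cyclin T1, a subunit of an elongation factor of RNA polymerase II. Sik1 had 0.72 with Nr4a1, 0.68 with Egr1 and 0.65 with Nr4a3. Ccnt1, at the level in 10 cells with a median of 0.95 RPKM, had 0.74 with Egr1, 0.71 with Nr4a1 and 0.71 with Nr4a3. Egr1, Nr4a1 and Nr4a3 had 0.59 to 0.67 with each other, so a neighbour they share was not found independently. Beside them stood Fos for Egr1 (0.69), the nuclear receptor coactivator gene Pnrc1 for Nr4a1 (0.68) and the growth factor gene Vegfb for Nr4a3 (0.64). The genes most like Egr4 were Haus7 (0.66), 9230110C19Rik (0.65) and the splicing-related kinase gene Clk4 (0.62), with Nr4a1 above all of them.

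The remaining members had other neighbours. Dusp1 was most like the neuronal tubulin gene Tubb3 (0.72), the ubiquitin ligase gene Trim9 (0.67) and the tau gene Mapt (0.65). Npas4 was most like the granin gene Chga (0.65), Ifi27 (0.62) and Tspan7 (0.58), and Arc was most like the mitochondrial gene Apoo (0.64), the circadian repressor gene Ciart (0.63) and Rprml (0.61). These are the top values of a search over 6353 genes per member in 25 cells. Haus7, Ifi27, Ciart and Rprml had a median of 0 RPKM over the cells.

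Other activity-response genes were found in 0 to 24 cells each. Of 34 further genes known as immediate early or activity-induced, 11 were in most cells, 22 in fewer and 1, Nrn1, in none, where it was listed at 0. The most frequent were Gadd45g in 24 cells (median 208 RPKM), Ppp1r15a in 22 (68.4 RPKM), Klf6 in 19 (28.2 RPKM) and, tied, Rgs2 and Btg1 in 18 (41.4 and 18.2 RPKM). The neurotrophin gene Bdnf was in 4 cells and the synaptic scaffold gene Homer1 in 1. The summed level of the 34 genes had a correlation of 0.66 with that of the 10 members, and among those at the level in at least 8 cells single genes ranged from 0.71 for Sik1 to -0.10 for Rem2.

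Dusp1 belongs to a family of MAP kinase phosphatases, and it was the most abundant of them here. Of the 10 other phosphatase genes, 2 were in most cells: Dusp3 in 21 (median 48.1 RPKM) and Dusp8 in 20 (28.5 RPKM). The inducible Dusp6 was in 10 cells and reached 244 RPKM in cell 25, Dusp5 was in 5 and Dusp4 in 4. Their summed level, 2.34 to 500.5 RPKM per cell, had a correlation of 0.39 with that of the members.

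Kinases and other activators upstream of the members ran from genes in every cell to genes in none. Of 10 MAP kinase and activator genes, 7 were in most cells, among them Map2k1 in 25 (median 222 RPKM), Mapk10 in 24 (33.7 RPKM) and Map2k2 in 20 (54.1 RPKM). Among 23 further activators, the calcium-dependent kinases Camk2a and Camk2b and the protein kinase A subunits Prkaca and Prkacb were in all 25 cells, at medians of 82.8, 124, 123 and 117 RPKM. Other kinase genes were rare, with Rps6ka3 in 1 cell, Rps6ka1 and Camk4 in 2 each and Mapk8 in 3. Of the factors that bind the promoters, Creb1 and Elk4 reached the level in no cell and were above 0 in 9 and 6, and Srf reached it in 2. The coactivator genes Mkl2 and Crtc1 were in 23 and 18 cells. The summed levels of the MAP kinase list and of the 23 activators had correlations of -0.13 and -0.05 with that of the members.

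Of 7 genes for partners of the members, 1 was in most cells, a share near the 13.5% of all symbols. The Egr co-repressor genes Nab1 and Nab2 were in 2 and 3 cells. Rxrg, one of the retinoid X receptor genes whose products can pair with Nr4a1 and Nr4a2, was in 15 cells (median 39.3 RPKM), against 9 for Rxrb and 3 for Rxra. Arnt2, a partner of Npas4, was in 9 cells and Arnt in 3.

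**Figure D5:**
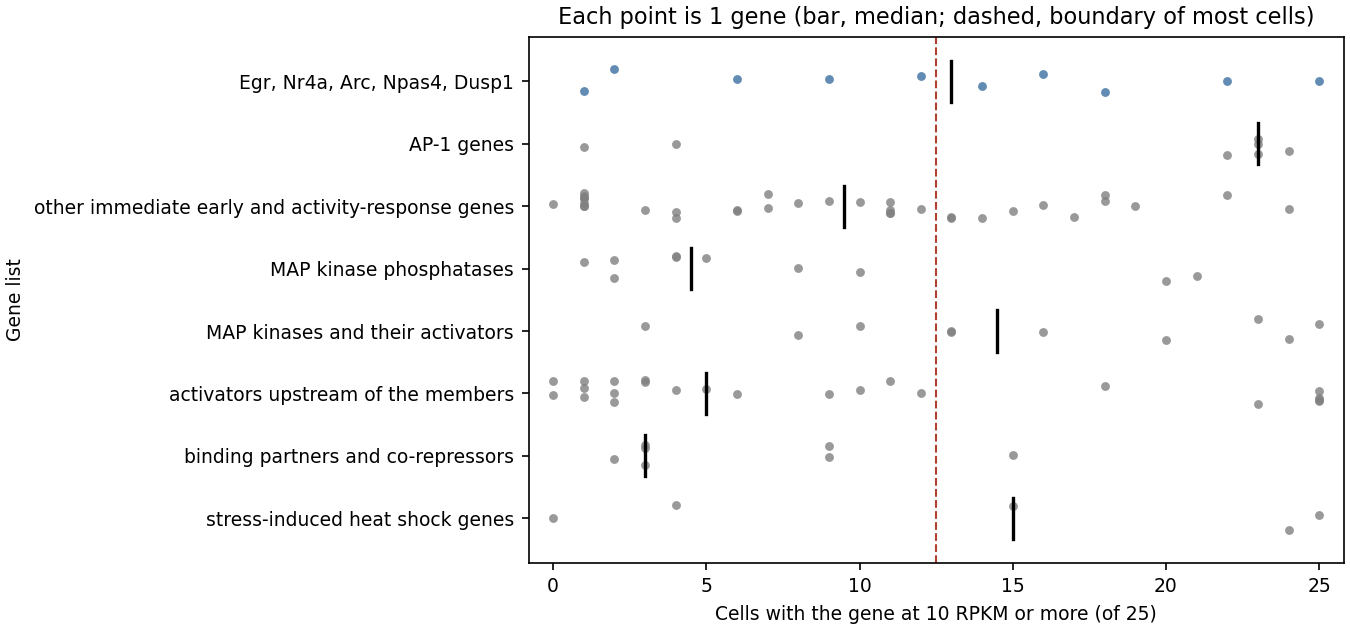
Number of cells, of 25, with each gene at 10 RPKM or more (x axis) for the 10 members and 7 other lists (rows); each point is 1 gene, bars are medians and the dashed line marks the boundary of most cells. The members run from 1 to 25 cells with a median of 13, AP-1 genes have a median of 23, and partners and co-repressors have a median of 3.

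The cells had been taken out of the tissue with papain, and no undigested tissue stands beside them, so induction before and during dissociation cannot be told apart. Of 5 heat shock genes that respond to stress, Hsph1 was in 25 cells (median 102 RPKM), Dnajb1 in 24 (81.8 RPKM) and Hspa1a in 15 (19.4 RPKM), while Hspa1b reached the level in none. Their summed level was 111 to 613 RPKM and had a correlation of 0.41 with the summed member level. Their part in the member levels was not tested.

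The members can also be induced in other cell types, so markers of these were read in the same cells. Every cell had 9 to 12 of 12 neuron markers. All 6 oligodendrocyte lineage markers were at 0 in every cell, and the microglial and macrophage list summed to at most 1.04 RPKM. The astrocyte list reached 39.8 RPKM in cell 17, from Aldh1l1, and the endothelial and mural list 35.6 RPKM in cell 32. The pituitary and pars tuberalis list reached 23.3 RPKM in cell 10, all of it from Timeless. Gh reached 15.2 RPKM in cell 4, and Tshb, Cga and Prl were at 0 in every cell. Tanycyte and ependymal markers summed to 0 to 97.6 RPKM, highest in cell 27, and their sum had a correlation of 0.39 with that of the members. The tanycyte marker Rax was listed at 0 in every cell, and the part of this list in the member levels was not tested.

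Cells marked by other genes overlapped with the rest in their summed member level. The 8 Th cells summed to 483 to 1729 RPKM with a median of 707, against 47.2 to 1493 RPKM with a median of 576 in the other 17. The 7 cells with Lhx1 at the level summed to 483 to 1204 RPKM over the 10 genes, with a median of 588, the 5 Sst cells to 452 to 1729 with a median of 650, and the 10 Glp1r cells to 95.5 to 1224 with a median of 613. The 7 Tbx19 cells, which include cell 10, ranged from 47.2 to 1224 RPKM with a median of 585, against 95.5 to 1729 RPKM with a median of 579 in the other 18. Nr4a3 was at the level in 1 of the 7 Tbx19 cells, Egr2 in 0, Arc in 2 and Npas4 in 3. In the other 18 these counts were 11, 6, 12 and 13. Nr4a1 was in 4 and 14, Dusp1 in 6 and 16 and Egr4 in 2 and 7. Egr3 was in 0 and 2 and Nr4a2 in 1 and 0. No share over all symbols was computed for this split or for the other splits. The median of Egr1 was 248 RPKM in the Tbx19 cells and 173 RPKM in the others. By median, Th cells held 7 members and the rest 4, and Tbx19 cells 3 and the rest 5.5. For Lhx1, Sst and Glp1r cells the medians were 6, 6 and 4.5, against 4.5, 5 and 5 in the rest. Cells 3, 8, 11, 12, 15 and 26 belonged to both the Th and the Lhx1 cells, so these sets are largely the same cells. The 6 cells lowest in Malat1 had sums of 243 to 1729 RPKM with a median of 927, against 47.2 to 1493 RPKM with a median of 576 in the other 19. With all cells from 1 pool, none of these differences was tested.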

How the data were processed

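Polyadenylated RNA of 25 single cells was amplified by Smart-Seq2 and prepared with Nextera XT, per the labels' protocols. Smart-Seq2 reads carry no molecular identifiers and no strand. The intervals on numbers of cells cover counting error only, since they treat the 25 cells of 1 pool as independent draws. The authors deposited 1 table whose values are RPKM by their form: they are decimals, and the products of value and exon length gave cell totals that varied little (coefficient of variation 1.65%). That total was 1.38 to 1.47 times the one that matching lengths would give, so the authors' lengths or read totals differ from those used here, and read numbers are estimates. GRCm38 and mm10 are the builds, and featureCounts 1.4.6, SAMtools 0.1.19, Picard 2.5.0, TopHat2 2.0.14 and bcl2fastq the software, named without role or order, per the submitters' processing notes. The plan left the unit open between CPM and RPKM, and RPKM was used.

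Of 33082 rows, 26 with names turned into dates were left out, and a repeated symbol was represented by its largest row by sum, leaving 30903 symbols. Exon lengths came from GENCODE M21 (GRCm38) for 22755 symbols. Depth was estimated from the steps of whole reads among low values. The estimate was tested on simulated data (22755 genes, 12 depths), with a largest error of 0.129%. Its error in the 25 cells, where the authors' lengths or read totals differ from those used here, was not tested. Computations used Python 3.11.15, NumPy 2.4.6, pandas 2.3.3 and SciPy 1.17.1. All 10 members are named, and other genes by rule: per list up to 4 in most cells and up to 3 in no cell, and the 3 non-members most like each frequent member. Further genes, such as Bdnf, Homer1, Dusp4, Dusp5, Dusp6, Srf, Nab1, Nab2, Rxra, Rxrb, Arnt, Arnt2, Mkl2, Crtc1, Rem2, Aldh1l1, Rax, Timeless, Gh, Btg1, Rps6ka1, Rps6ka3, Camk4 and Mapk8, were named after their values were seen. A gene that the rule names is not reported here. The members and lists were chosen with earlier results of these data known. Alternatives changed the detection level, the cell scaling, the treatment of repeated symbols, the correlation and the cells included.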

Additional observations from a re-analysis of the deposited data

How the results depend on the processing

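The number of members in most cells was 5, and it was 5 or 6 under the 9 alternatives run; Nr4a3 was the addition, in 14 cells at 5 RPKM and in 18 at 1 RPKM and at 3 estimated reads. Nr4a2 was in 0 cells at 20 RPKM. The median of 5 members per cell ranged from 4 at 20 RPKM to 6 at 1 RPKM and at 3 estimated reads. The summed level had a median of 585 RPKM, 524 RPKM when each cell was rescaled by its median ratio and 405 RPKM without Egr1. The median correlation between members, 0.34, was 0.23 without cells 4 and 10 and 0.41 without the 6 shallowest cells, where 6 members passed the filter. Without the 6 cells lowest in Malat1, 13 of 15 pairs were above 0, and without cell 10, 19 of 21. The alternatives that leave out cells 4 and 10, those on the AP-1 sum, and some that leave out cells low in depth or Malat1 were chosen after seeing the data. A 0 in a single cell may be RNA that was not captured, which depth does not show. No paired analysis was possible because all cells form 1 group.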
